A study of Bos taurus with 24 samples.

Results

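The liver of lactating dairy cows was compared between a ration built on corn stover, the stalks and leaves that remain after the maize grain is taken, and a ration built on alfalfa hay, a legume forage. The libraries described are the 12 liver libraries of 24 in the series, chosen by their tissue label, with 6 cows on each ration. The other 12 libraries come from the mammary gland of the same cows. All cows were Bos taurus in milk and had received their ration for 12 weeks before slaughter. Each ration held 1 cow of parity 2 and 5 cows of parity 3. The labels name no breed or genotype. The hay cows were 231 to 246 days in milk, gave 23.3 to 29.0 kg of milk per day and ate 17.7 to 18.7 kg of dry matter per day. The stover cows were 228 to 254 days in milk, gave 17.1 to 23.3 kg of milk and ate 15.9 to 19.5 kg of dry matter per day. Only stover cow 1 gave more milk than any hay cow, and it exceeded only hay cow 4. The 2 rations were fed to different cows, so the spread reported here is the spread between cows.

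The liver takes up the volatile fatty acids and amino acids absorbed from the gut, makes most of the glucose a ruminant uses, and secretes most plasma proteins. In cattle new fatty acids are made mainly in adipose tissue and in the lactating mammary gland, and the liver oxidises or re-esterifies the fatty acids that reach it. During infection or tissue damage hepatocytes release acute phase proteins, of which haptoglobin and serum amyloid A are the usual measures in cattle. The hepatic growth hormone receptor drives release of insulin-like growth factor 1.

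The count files carry Ensembl identifiers without gene names. Names were therefore given to 44 of 48 identifiers recalled from general knowledge of the bovine annotation, not from the files. A tissue check could be set for 26 of them, requiring a median at least 4-fold higher in the tissue known for the gene. It was failed by 2 identifiers, which are not named. A further 2 were left unnamed after their low liver levels raised doubt about the recall. Of the 44 named genes, 22 passed the check and 22 had none, so their names rest on recall alone. Values are normalised CPM, unless stated otherwise: each count was scaled to a common library size after the library total had been multiplied by a trimmed-mean factor (TMM).

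The hay libraries held 23595586 to 29574105 counts and the stover libraries 26125472 to 32563876. Among 24616 identifiers, 6399 had no read in any liver. By CPM of the unscaled library total, the livers carried 11636 genes at a median of at least 1 CPM. The 110 genes at a median of 1000 CPM or more made up 51.2% of the sum of all gene medians. Only 7 genes reached 10000 CPM, and they made up 26.1% of that sum.

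The plasma protein genes marked the tissue as liver in every library. The 7 named members took between 13.3% and 22.2% of each library's reads, with a median of 15.5%. ALB (albumin, the main carrier protein of plasma) had a lowest, median and highest level of 71142, 102410 and 259290 CPM on alfalfa hay, and of 76425, 95489 and 230160 CPM on corn stover. The highest liver of each ration was the library numbered 1, and the other 10 livers overlapped between the rations. TF (transferrin, the iron carrier) had medians of 13013 and 13640 CPM on hay and stover. C3 (the central complement component) had medians of 17377 and 14889 CPM, with ranges of 12905 to 20014 and 13625 to 19674. These ranges overlapped almost fully. AHSG (fetuin-A) had medians of 1812 and 2331 CPM, SERPINA1 (the alpha-1 antitrypsin gene) 2533 and 2582, and APOE (an apolipoprotein) 2086 and 2637. No plasma protein gene separated the rations.

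Both livers numbered 1 stood apart from the others in the make-up of their reads. Their plasma protein genes took 21.9% and 22.2% of reads, against 13.3% to 17.4% in the other 10 livers. Their TMM factors were 0.700 on alfalfa hay and 0.777 on corn stover, against 0.983 to 1.17 elsewhere. On the first principal component of log2 CPM, which held 28.8% of the variance, they lay at -81.4 and -70.4, and the other livers between -2.23 and 34.3. With 1 such liver in each ration, this difference does not run along the diet.

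Across all genes, no diet difference in the liver passed the test. The quasi-likelihood test of edgeR called 0 of 12929 genes (0%) at an adjusted p of 0.05, and the smallest adjusted p was 0.806. At an unadjusted p below 0.05 it counted 354 genes (2.74%), 188 of them (1.45% of all genes) with higher and 166 (1.28%) with lower fitted values on corn stover. DESeq2 called 3 of 12905 genes (0.0232%), and limma voom called 0. Without both livers numbered 1, edgeR again called 0, with 482 genes at an unadjusted p below 0.05 and a smallest adjusted p of 0.434. The median size of a gene's fitted difference was 0.16 on the log2 scale, below the median standard error of 0.26. The median coefficient of variation between cows of 1 ration was 32.9%. In 8 genes (0.0619%) the 6 livers of a ration all lay on the same side of the other 6. These tissues are mixtures of cells, so fewer cells of a type and less RNA per cell cannot be told apart.

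The 2 genes with the smallest p in each direction were the milk protein gene CSN1S2, described with its list, and 3 genes given by identifier only. ENSBTAG00000046768 had a lowest, median and highest level of 18.9, 36.5 and 54.4 CPM on alfalfa hay and of 34.5, 172 and 924 CPM on corn stover. Of the stover livers, 5 lay above every hay liver, a pattern held by 0.572% of genes, and stover liver 3 was inside the hay range. The log2 difference was 3.28 ± 0.63 (SE), with an adjusted p of 0.806 by edgeR and 0.00273 by DESeq2. Over all processing alternatives its adjusted p ran from 0.00273 to 1. The same identifier had a median of 0.0614 CPM in mammary gland, far below its liver level.

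ENSBTAG00000017450 was higher in 5 of 6 stover livers than in any hay liver, at 4.83, 8.35 and 11.4 CPM on hay and 10.7, 16.3 and 19.0 CPM on stover. Its log2 difference was 0.94 ± 0.22 (SE), with an adjusted p of 0.99999 by edgeR. In the other direction, ENSBTAG00000002555 stood at 1.77, 11.7 and 16.9 CPM on hay and 1.04, 1.92 and 4.67 CPM on stover. Hay livers 1 to 5 held 5.97 to 16.9 CPM, above every stover liver, while hay liver 6 was inside the stover range. The log2 difference was -2.28 ± 0.48 (SE), with an adjusted p of 0.806 by edgeR and 0.00288 by DESeq2. It is 0.32 when hay liver 6 stands alone for its ration. The third gene that DESeq2 called, ENSBTAG00000013070, was chosen after its values were seen. It had medians of 0.826 CPM on hay and 0.211 CPM on stover, and its 6 stover livers all lay below every hay liver, where 0.418% of genes had at least 5 below. It had an adjusted p of 0.0266 by DESeq2 and 0.806 by edgeR.

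**Figure D1:**
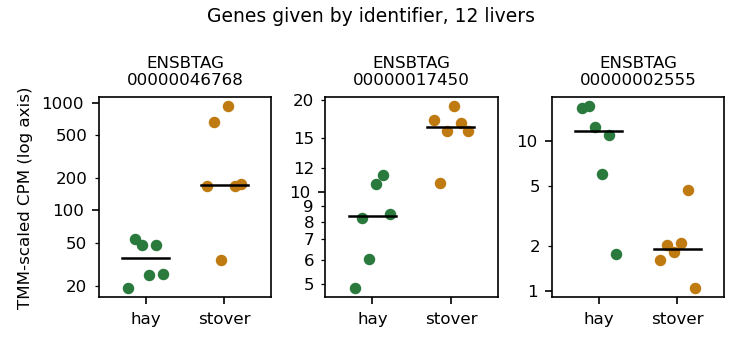
Level of 3 genes known by identifier in each of 12 livers, as TMM-scaled CPM on log axes, by ration; each point is 1 cow and each line is the group median. For ENSBTAG00000046768 the stover median is 172 CPM against 36.5 on hay, with 1 stover liver inside the hay range.

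Of the 44 named genes, 41 had enough reads to be tested. None passed the adjusted threshold. At an unadjusted p below 0.05 there were 10 of 41, against 2.74% of all genes. On corn stover 1 was higher, against 1.45% of all genes, and 9 were lower, against 1.28%. The 6 milk protein genes described after the other lists make up 6 of these 10. The other 35 tested genes gave 4 (11.4%), SCD on the higher side and ACACA, TLR2 and ACTB on the lower side. Of the 41 fitted values, 20 were higher and 21 lower on stover, with a median log2 difference of -0.04, and over all genes tested 50.6% were higher and 49.4% lower, with a median of 0.00355. The signs of most turned somewhere: 31 of the 41 turned in at least 1 of 29 alternative settings, and 10 kept their sign in all. Leaving aside the settings in which hay liver 6 alone stands for its ration, 23 turned.

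**Figure D2:**
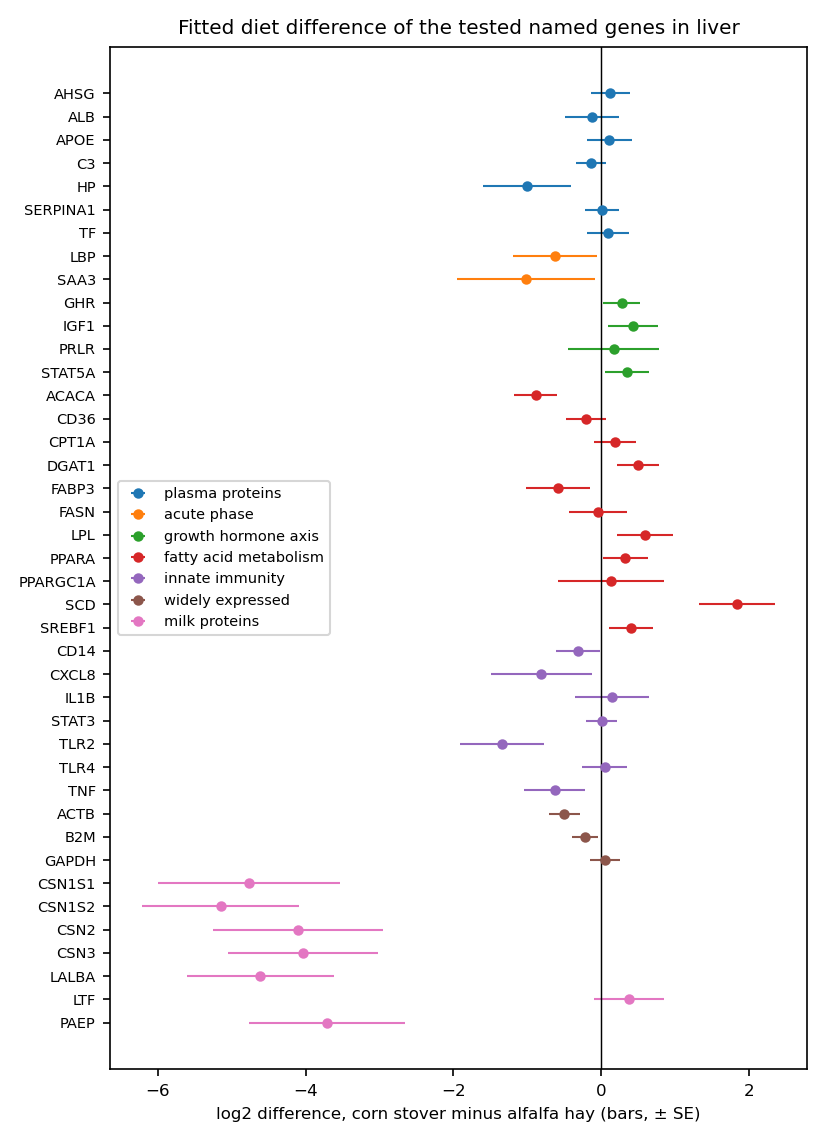
Fitted log2 difference, corn stover minus alfalfa hay, for the 41 tested named genes in liver, coloured by gene list; points are edgeR estimates and bars are ± SE. Outside the milk protein genes most bars reach or lie near 0, SCD stands at 1.85, and 31 of the 41 signs turned under some alternative setting.

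Of 12 genes of fatty acid metabolism 11 were tested, 7 with higher and 4 with lower fitted values on stover and a median log2 difference of 0.19. SCD and ACACA, which act at different steps of fat synthesis, lay on opposite sides. SCD (stearoyl-CoA desaturase, which puts a double bond into saturated fatty acids) stood at 4.12, 12.5 and 43.8 CPM on alfalfa hay and at 24.4, 53.1 and 127 CPM on corn stover, as lowest, median and highest. The lowest stover liver lay above 5 of the 6 hay livers, and 3 stover livers exceeded all hay livers. The fitted level on stover was 3.59-fold that on hay, a log2 difference of 1.85 ± 0.52 (SE). The unadjusted p of edgeR was 0.00272, its adjusted p 0.99999, and the adjusted p of DESeq2 was 0.178. Over all alternatives the log2 difference of SCD ran from 1.49 to 3.87 and its adjusted p from 0.178 to 1.

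ACACA (acetyl-CoA carboxylase, the first committed step of fatty acid synthesis) stood at 22.4, 43.5 and 78.2 CPM on hay and at 18.7, 25.4 and 32.2 CPM on stover. The stover livers sat close together, and 4 hay livers lay above all of them while hay livers 2 and 3 overlapped them. The log2 difference was -0.88 ± 0.29 (SE), with an unadjusted p of 0.00860 and an adjusted p of 0.99999 by edgeR. FASN (fatty acid synthase, which extends the chain) had medians of 10.7 and 11.7 CPM on hay and stover, with a log2 difference of -0.04 ± 0.39. DGAT1 (the last step of triglyceride synthesis) stood at 6.17, 10.6 and 12.6 CPM on hay and at 5.29, 15.8 and 21.5 CPM on stover. In this gene 4 stover livers were above every hay liver and stover liver 1 was below every hay liver, with an unadjusted p of 0.0965. SREBF1 (a transcription factor of lipid synthesis) had medians of 28.1 and 30.7 CPM.

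The genes of fatty acid uptake and oxidation overlapped between the rations. LPL (lipoprotein lipase) had medians of 7.27 and 8.40 CPM, and 2 stover livers exceeded all hay livers. CD36 (a fatty acid transporter) had medians of 27.6 and 24.5 CPM, and FABP3 (a fatty acid binding protein) 1.51 and 1.15 CPM. CPT1A (the entry step of fatty acids into mitochondria) had medians of 116 and 146 CPM, in ranges of 52.1 to 181 and 70.1 to 194. PPARA (a nuclear receptor that switches on fatty acid oxidation) had medians of 72.2 and 81.7 CPM. PPARGC1A (a coactivator of mitochondrial and gluconeogenic genes) differed far more between cows than between rations, from 11.8 to 123 CPM on hay and from 8.33 to 236 CPM on stover. Its coefficient of variation within a ration was 82.0%, above 98.5% of all genes tested. FABP4 (an adipocyte fatty acid binding protein) was too low to be tested, at a median of 0.209 CPM on hay and 0.201 CPM on stover.

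**Figure D3:**
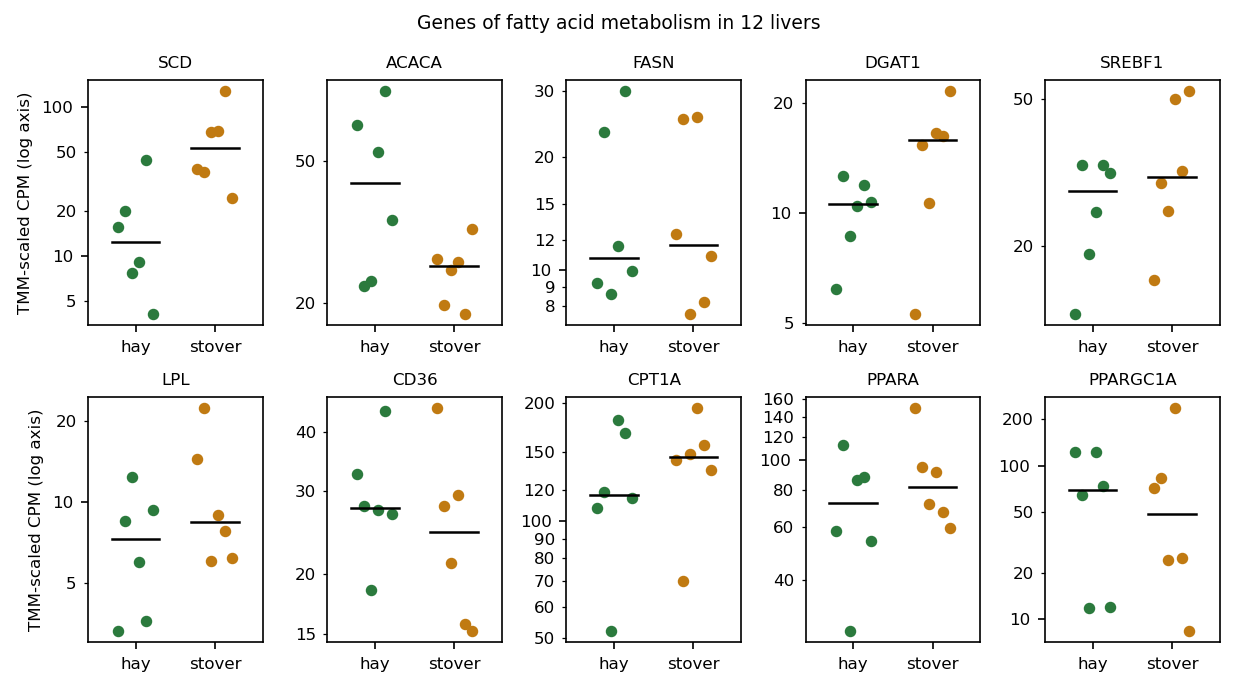
Level of 10 genes of fatty acid metabolism in each of 12 livers, as TMM-scaled CPM on log axes, by ration; each point is 1 cow and each line is the group median. SCD is shifted upward on corn stover (medians 12.5 and 53.1 CPM) and ACACA downward (43.5 and 25.4 CPM), with overlap in both, and PPARGC1A spreads over more than a 10-fold range in each ration.

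All 4 genes of the growth hormone axis had higher fitted values on stover, with a median log2 difference of 0.32, and none reached an unadjusted p of 0.05. GHR (the growth hormone receptor) stood at 93.8, 178 and 280 CPM on hay and at 165, 200 and 350 CPM on stover. IGF1 (insulin-like growth factor 1) stood at 8.34, 18.5 and 20.6 CPM on hay and at 10.9, 20.2 and 49.1 CPM on stover. In IGF1, 5 hay livers sat between 18.0 and 20.6 CPM, 3 stover livers lay above that and the other 3 below it. STAT5A (a transcription factor of the receptor's signal) had medians of 5.18 and 7.36 CPM. PRLR (the prolactin receptor) had medians of 91.5 and 60.5 CPM, in ranges of 23.2 to 218 and 23.6 to 293, so its median was lower on stover while its fitted log2 value was 0.17. With days in milk as a covariate, the log2 differences of IGF1 and PRLR were -0.087 and -0.29.

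The acute phase genes HP, SAA3 and LBP were among the most variable of the named liver genes, and none passed the test. HP (haptoglobin, which binds free haemoglobin) stood at 3917, 10561 and 26686 CPM on hay and at 1033, 5169 and 15442 CPM on stover. The ranges overlapped, with stover livers 1 and 4 below every hay liver. Its log2 difference was -1.0 ± 0.60 (SE), with an unadjusted p of 0.115, and -0.64 without hay liver 3. SAA3 (a serum amyloid A) stood at 4.87, 69.9 and 180 CPM on hay and at 1.32, 12.2 and 160 CPM on stover. Hay liver 6 was low and stover liver 6 was high, each inside the other ration's range. Its log2 difference was -1.02 ± 0.93 (SE), -2.54 without stover liver 6, and 2.95 when hay liver 6 stands alone for its ration. LBP (which carries bacterial lipopolysaccharide to CD14) had medians of 433 and 436 CPM on hay and stover. Its fitted log2 difference was -0.62 ± 0.57 (SE) with hay liver 3 included, and 0.29 without it. The spread of SAA3 within a ration exceeded that of 99.6% of genes tested, HP 96.3% and LBP 95.6%, against 16.2% for C3.

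Of 9 innate immune genes 7 were tested, 3 with higher and 4 with lower fitted values on stover and a median log2 difference of -0.31. TLR2 (a receptor for bacterial lipoproteins) was the only member at an unadjusted p below 0.05. It stood at 7.41, 8.78 and 78.1 CPM on hay and at 4.74, 8.17 and 10.9 CPM on stover. The hay maximum was hay liver 3, and the other 5 hay livers lay between 7.41 and 10.2 CPM, inside or near the stover range. The log2 difference was -1.34 ± 0.57 (SE), with an unadjusted p of 0.0315, and -0.11 without hay liver 3. That liver also had the highest level of all 12 for HP at 26686 CPM, LBP at 2469, IL1B (interleukin 1 beta) at 21.4, CD14 (the lipopolysaccharide co-receptor of macrophages) at 309 and STAT3 (the transcription factor of interleukin 6 signals) at 858. C3 was highest there too, at 20014 CPM, close to 19979 in hay liver 1. SAA3, at 105 CPM, was not, against 180 in hay liver 1 and 160 in stover liver 6. Nor were TNF, CXCL8, IL6 and IL10 highest there. The summed level of the 3 macrophage markers CD14, TLR4 and TLR2 was 397 CPM there and ran from 95.8 to 263 CPM in the other 11 livers. CD14 and TLR2 made up most of that sum, and TLR4, at 10.2 CPM, was lower there than in hay liver 2 at 12.5 CPM and stover liver 2 at 14.1 CPM. How this liver's cell make-up bears on these genes was not tested.

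The remaining immune genes lay at overlapping levels. CD14 had medians of 135 and 139 CPM on hay and stover, and TLR4 (the lipopolysaccharide receptor) 8.11 and 8.73 CPM. STAT3 had medians of 584 and 598 CPM. IL1B had medians of 5.31 and 7.67 CPM. Transcripts of TNF and CXCL8 (inflammatory cytokine and neutrophil chemokine genes) were scarce in every liver, at most 1.06 and 2.65 CPM. IL6 had no read in most livers, with a highest level of 0.510 CPM, and IL10 had medians of 0.188 and 0.369 CPM and reached 2.72 CPM in stover liver 4. Neither passed the filter on low counts, so they were not tested.

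**Figure D4:**
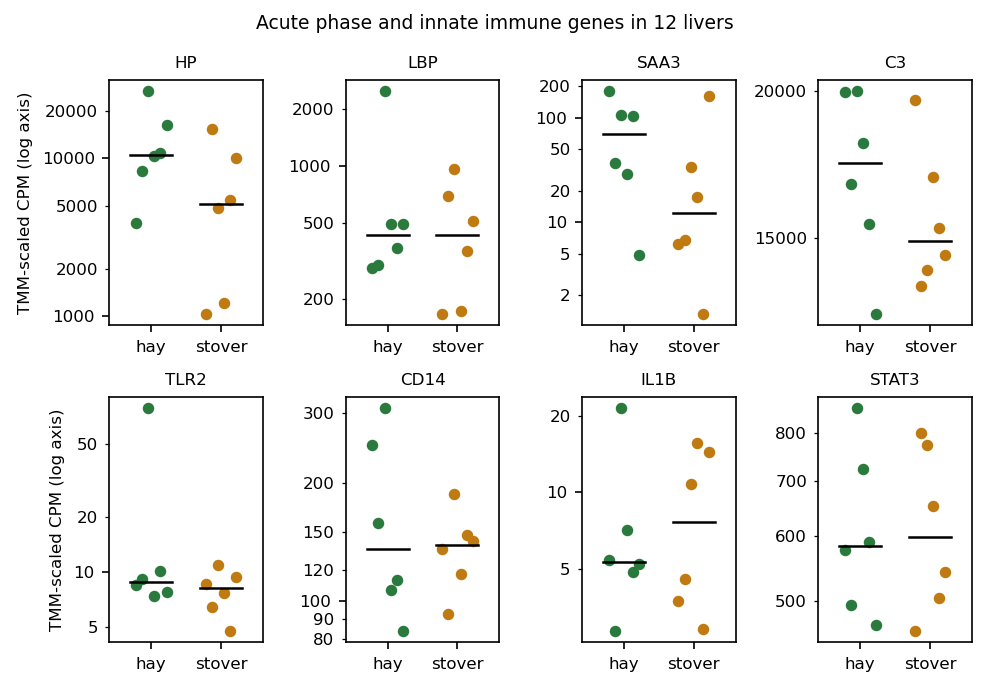
Level of 8 acute phase and innate immune genes in each of 12 livers, as TMM-scaled CPM on log axes, by ration; each point is 1 cow and each line is the group median. A single hay liver is the highest point for HP, LBP, TLR2, CD14, IL1B and STAT3, and narrowly for C3, but not for SAA3. It stands at 78.1 CPM for TLR2 where the other hay livers reach 10.2 CPM.

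Of the 3 widely expressed genes, ACTB (cytoplasmic beta-actin) stood at 312, 557 and 731 CPM on hay and at 305, 402 and 479 CPM on stover. Stover levels filled the lower part of the hay range. Its log2 difference was -0.49 ± 0.22 (SE), with an unadjusted p of 0.0373 and an adjusted p of 0.99999 by edgeR. GAPDH (a glycolytic enzyme) had medians of 251 and 236 CPM. B2M (the light chain of MHC class I) had medians of 1401 and 1298 CPM, and only 11.1% of genes varied less between the cows of a ration.

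The caseins, alpha-lactalbumin and beta-lactoglobulin are made by the lactating mammary epithelium and are not known as liver products. Reads of the 6 genes CSN1S1, CSN1S2, CSN2, CSN3 (caseins), LALBA and PAEP (beta-lactoglobulin) were counted in every liver library. Their summed level, as CPM of the unscaled library total, was 207, 185, 154, 133 and 101 in hay livers 1 to 5, from 5081, 5160, 4437, 3584 and 2393 reads. In hay liver 6 it was 1.08 CPM, from 32 reads. Stover livers 1 to 6 held 9.77, 0.0348, 1.63, 23.9, 0.421 and 1.18 CPM, from 290, 1, 53, 691, 11 and 32 reads. Hay livers 1 to 5 thus lay above all other livers, and hay liver 6 lay inside the stover range. The highest share in any liver was 0.0207% of its reads.

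**Figure D5:**
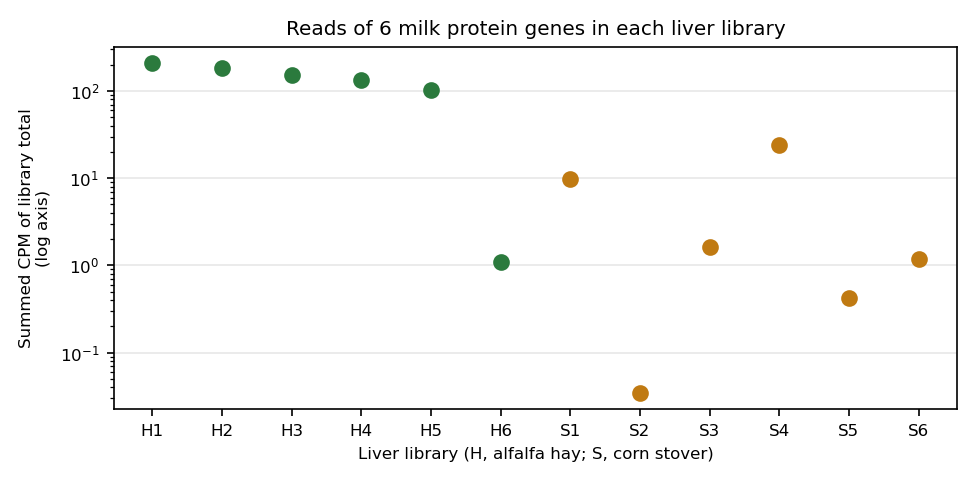
Summed level of 6 milk protein genes in each liver library, as CPM of the library total on a log axis, with alfalfa hay livers H1 to H6 and corn stover livers S1 to S6. Hay livers 1 to 5 lie between 101 and 207 CPM, and the other 7 livers between 0.0348 and 23.9 CPM.

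These same 5 libraries are set apart in the files by the way their count column is headed. Their headers carry the tissue letter, and those of hay liver 6 and all stover livers do not. What the header difference records is not stated. With the reads of the 5 hay livers pooled, the mix of the 6 genes lay close to that of mammary gland. CSN1S1 made up 47.7% of the milk protein reads in these livers and 48.9% in the mammary libraries of the same cows, CSN2 23.6% and 22.7%, CSN1S2 12.3% and 12.5%, and CSN3 8.52% and 8.40%. For LALBA the shares were 3.05% and 3.27%, and for PAEP 4.82% and 4.22%. Single livers could differ from the pool: hay liver 5 held 997 CSN1S1, 711 CSN2 and 228 CSN1S2 reads among its 2393. The pooled stover livers, with far fewer reads, held 39.2% CSN1S1, 7.51% CSN1S2, 30.6% CSN2, 11.4% CSN3, 2.78% LALBA and 8.44% PAEP. In the stover mammary libraries these shares were, in the same order, 45.3%, 13.4%, 23.7%, 9.12%, 3.19% and 5.31%. Relative to the same cow's mammary level, the summed reads stood at 302, 273, 217, 173 and 135 ppm in hay livers 1 to 5 and at 1.51 ppm in hay liver 6. Stover livers ran from 0.0480 to 32.5 ppm.

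The 6 milk protein genes had the lowest fitted values of the named genes. Log2 differences were -4.76 ± 1.23 (SE) for CSN1S1, -5.15 ± 1.07 for CSN1S2, -4.11 ± 1.15 for CSN2, -4.04 ± 1.01 for CSN3, -4.61 ± 1.0 for LALBA and -3.71 ± 1.06 for PAEP. None passed the edgeR test over 12 livers. In an edgeR fit over all 24 libraries the adjusted p of LALBA was 0.0408, against 0.837 over the 12 livers. The larger fit shares a gene's spread between liver and mammary gland, so its p does not measure the spread of liver alone. With each library left out in turn the 6 stayed below 0, between -6.20 for CSN1S2 without stover liver 1 and -3.42 for PAEP without hay liver 1, and PAEP was -5.97 without stover liver 4. All 6 differences turned positive, between 1.23 and 5.41, when hay livers 1 to 5 were left out. Hay liver 6, then alone for its ration, held 14 CSN1S1, 7 CSN1S2, 9 CSN2, 1 CSN3, 0 LALBA and 1 PAEP reads. The sizes of these positive differences rest on counts at or near 0 and are not reliable fold differences. Ration, header kind and milk protein reads cannot be told apart for 5 of the 6 hay livers. LTF (lactoferrin, an iron-binding protein of milk and neutrophils) did not show the pattern. It had medians of 3.53 CPM on hay and 7.52 CPM on stover and a log2 difference of 0.37 ± 0.47. That difference was 0.17 without hay liver 2 and 0.82 without hay liver 3.

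The ppm values, taken with the mammary level of another gene, set a scale for that gene. All values in this comparison are CPM of the unscaled library total. At the largest ratio, 302 ppm, the mammary median of SCD, 1100 CPM, corresponds to 0.332 CPM in a liver library, and that of ACACA to 0.0721 CPM. For FASN and CD36 the same ratio gives 0.603 and 0.881 CPM. SAA3 and HP had low mammary medians, 3.13 and 3.17 CPM, for which the ratio gives 0.000945 and 0.000957 CPM. On the same unscaled basis SCD had at least 4.497 CPM in every liver. For FABP3 the ratio gives 0.603 CPM, which is within the range of its liver levels, 0.452 to 4.02 CPM. For LTF, with a mammary median of 1129 CPM, it gives 0.341 CPM, below its liver levels of 1.47 to 15.4 CPM. Reads at that ratio would be small beside those levels, so LTF cannot tell whether it shared the milk protein pattern. The mammary median of ENSBTAG00000002555 was 0.110 CPM. Whether mammary reads bear on the diet differences of these genes was not tested.

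Milk yield and feed intake were then set against gene levels within ration. For milk yield, edgeR called 0 of 12929 genes (0%), with 193 (1.49%) at an unadjusted p below 0.05, and DESeq2 called 1. The call of DESeq2 was ENSBTAG00000016299, which had a fitted log2 slope of -0.35 ± 0.07 (SE) per kg of milk per day and an adjusted p of 0.0124 by DESeq2 and 0.99986 by edgeR. The smallest p in the other direction belonged to ENSBTAG00000005145, with a slope of 0.18 ± 0.05. Of the 41 tested named genes 1, SCD, had an unadjusted p below 0.05 for milk yield. For dry matter intake edgeR called 0 of 12929 genes (0%), with 529 (4.09%) at an unadjusted p below 0.05, and DESeq2 called 5. Here 2 named genes, PAEP and CXCL8, had an unadjusted p below 0.05. Stover cow 4 ate the least of all cows, 15.9 kg per day. Its liver had the highest PAEP and CXCL8 of the stover livers, at 2.55 and 1.44 CPM.

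Whether the diet difference was particular to the liver was tested as an interaction with tissue over 24 libraries. By edgeR 0 of 13760 genes (0%) passed, with 700 (5.09%) at an unadjusted p below 0.05 and a smallest adjusted p of 0.151. This fit did not use the pairing of liver and mammary gland within a cow. With cow as a block edgeR called 0, with 498 genes (3.62%) at an unadjusted p below 0.05 and a smallest adjusted p of 0.229. DESeq2 called 74 genes, 73 with a lower and 1 with a higher diet difference in liver than in mammary gland. Among the named genes 14 had an unadjusted p below 0.05 by edgeR. In 12 of them the diet difference was lower in liver than in mammary gland. These were the 7 milk protein genes, the plasma protein genes ALB, TF, C3 and HP, and SAA3. In liver itself the log2 diet difference was -0.12 for ALB, 0.094 for TF, -0.13 for C3 and 0.37 for LTF. Their liver minus mammary values were -2.54, -2.26, -0.91 and -1.28, so most of each lay in the mammary libraries. There ALB and TF had medians of only 23.0 and 2.92 CPM of the unscaled library total. The liver difference was -1.0 for HP, -1.02 for SAA3 and between -5.15 and -3.71 for the remaining milk protein genes. Their liver minus mammary values were -2.84, -3.11 and between -5.11 and -3.91. STAT5A and SCD were the 2 on the higher side. SCD had a liver minus mammary difference in log2 diet effect of 1.59 ± 0.59 (SE), with an adjusted p of 0.788 by edgeR. No diet difference was shown by edgeR to differ between the tissues.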

How the data were processed

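Liver RNA of 12 cows was sequenced after total RNA extraction from ground frozen tissue, per the labels' protocols. The deposited files hold raw counts of reads per Ensembl gene identifier, 1 file per library, made by the authors. TopHat2 2.0.9, SAMtools 1.1, HTSeq 0.6.1 and the build UMD3.1 are named per the submitters' processing notes; the annotation release and strand setting are not stated there, so overlapping, antisense and near-identical genes may share reads. No library pair held identical counts. The gene table used here matched 0 identifiers, so no position or sequence is printed.

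Diet was tested over the 12 livers in R 4.3.3 by edgeR 4.0.16 (glmQLFit and glmQLFTest), after filterByExpr (minimum count 10, minimum total 15) and TMM scaling, with Benjamini-Hochberg adjustment over all genes tested and a threshold of 0.05. The standard error was derived from the log2 difference and its F statistic. Slopes had ration in the model, and the interaction used 4 group means over 24 libraries. DESeq2 1.42.0, limma 3.58.1 (voom) and sva 3.50.0 gave alternatives, together with other scalings, filters, covariates and left-out libraries. Levels are medians with ranges, and genes are not ranked against each other because gene lengths were not used. The scripts were tested on simulated data.

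The libraries, gene lists and tests were chosen with earlier results of these data known, among them the milk protein reads of 5 hay livers. The lists were applied without 1 of their genes, which is not reported here. Genes are named by list, or by identifier where they had the 2 smallest p in each direction of the diet test or the milk yield slope. The decision to leave 2 identifiers unnamed for their level was made after seeing it. HP and C3 belong to the plasma protein and the acute phase lists and are counted under the first. P-values of the fits within liver measure the spread between the cows of a ration. Fits over 24 libraries take the libraries as independent, although each cow gave both tissues, except where cow was a block. Counts of a few reads carry counting error, and reads were counted without molecular identifiers as far as the labels state.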

Additional observations from a re-analysis of the deposited data

Results flagged for a closer look

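In each ration, a liver far from the other 5 was looked for in 116 groups of values. This gave 21 cases. For independent values with a normal spread the rule would flag about 1 in 20 groups, or 5.8. The groups share libraries and many values are skewed or near 0, so 5.8 is not a chance level for these data. Both livers numbered 1 were set apart, with ALB at 259290 CPM on alfalfa hay (others 71142 to 126140) and 230160 CPM on corn stover (others 76425 to 114090), and TMM factors of 0.700 and 0.777. Stover liver 1 also had reads for 15022 genes (others 15513 to 15696), 35.9% of reads in its 10 top genes, 21.9% in plasma protein genes, GHR at 349.5 CPM and ENSBTAG00000017850 at 63.5 CPM. Hay liver 3 stood out for LBP at 2469 CPM (others 291 to 496), TLR2 at 78.1 CPM and IL1B at 21.4 CPM (others 2.84 to 7.09). Stover liver 4 stood out for PPARGC1A at 236 CPM (others 8.33 to 83.5), PAEP at 2.55 CPM, IL6 at 0.134 CPM and IL10 at 2.72 CPM. Hay liver 2 had FABP4, an adipocyte gene, at 9.55 CPM where the others held at most 0.236, and IL6 at 0.510 CPM where the others had no read. Stover liver 6 had SAA3 at 160 CPM (others 1.32 to 33.6), hay liver 6 had IGF1 at 8.34 CPM (others 18.0 to 20.6), and stover liver 5 had ENSBTAG00000002555 at 4.67 CPM (others 1.04 to 2.08).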

How the results depend on the processing

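With library totals only as scaling, the median gene shifted by 0.0757 (log2) and 8175 of 12929 fitted values were higher on corn stover. Counts at an unadjusted p below 0.05 for diet were 727 with no filter, 579 with voom quality weights, 754 with parity 3 cows only and 762 with the replicate block, and 246 to 565 with each library left out, the highest without stover liver 1. DESeq2 and the fit over 24 libraries each called 3 genes for diet. For milk yield DESeq2 called 1, the replicate block gave 950 unadjusted, and left-out libraries 91 to 410, the lowest without hay liver 6 and the highest without hay liver 1, with 302 without hay liver 3 and 314 without hay liver 4. For intake DESeq2 called 5. For the interaction DESeq2 called 74, voom gave 437 unadjusted, and left-out cows 535 to 1208 unadjusted (highest without stover cow 1) and 0 to 2 called (2 without hay cow 4). Replicate numbers name different cows in the 2 rations, so the block was not used in the main fit. Deviations of same-numbered livers correlated at 0.0642 to 0.618. Hay livers 1, 3, 4 and 6 correlated best with the stover liver of the same number, and hay livers 2 and 5 with stover liver 4. What the replicate number may track was not tested.

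Signs turned in 108 fits of 31 named genes, none of them called. Leaving hay livers 1 to 5 out gave ALB 0.16, C3 0.28, SAA3 2.95, CSN1S1 2.54, CSN1S2 1.23, CSN2 2.79, CSN3 4.40, LALBA 5.41, PAEP 3.89, FASN 0.60, FABP3 0.027, TLR2 0.038, CD14 0.71, CXCL8 1.05 and ENSBTAG00000002555 0.32. This fit takes the lone hay liver to vary like the stover livers. Its milk protein gene values rest on 0 to 14 reads per gene in that hay liver. Only the left-out livers carry the tissue letter in their headers. With header kind as a batch, the diet difference is therefore again the stover livers against that lone hay liver. The batch setting repeats the same contrast, resting on 1 hay cow, and is not a separate check. Header kind as a batch gave ALB 0.16, C3 0.28, SAA3 2.95, CSN1S1 2.52, CSN1S2 1.18, CSN2 2.78, CSN3 4.37, LALBA 5.31, PAEP 3.88, FASN 0.60, FABP3 0.024, TLR2 0.036, CD14 0.71, CXCL8 1.05 and ENSBTAG00000002555 0.32. Milk yield as a covariate gave ALB 0.14, AHSG -0.41, C3 0.026, LBP 0.20, FASN 0.84, CD36 0.33, CPT1A -0.043, SREBF1 -0.0645, PPARGC1A -0.30, TLR2 0.26, CD14 0.12, IL1B -0.27 and CXCL8 1.37. Surrogate variables gave ALB 0.037, APOE -0.25, PRLR -0.39, CPT1A -0.0034, PPARGC1A -0.40, TLR4 -0.071 and CD14 0.037. Parity 3 cows only gave TF -0.023, SERPINA1 -0.028, LTF -0.014, PRLR -0.42 and FASN 0.17. Days in milk gave IGF1 -0.087, PRLR -0.29, PPARGC1A -1.21, TLR4 -0.12, STAT3 -0.14 and GAPDH -0.10. Voom gave PRLR -0.038 and PPARGC1A -0.079. With quality weights it gave PRLR -0.61, PPARA -0.0083, PPARGC1A -0.76, TLR4 -0.13, CD14 0.10 and STAT3 -0.0091. Without both livers numbered 1, PRLR was -0.46 and TLR4 -0.075. The replicate block gave PPARGC1A -0.077. With each library left out, ranges crossing 0 were -0.42 to 0.23 for ALB, -0.071 to 0.31 for TF, -0.078 to 0.19 for SERPINA1, -0.95 to 0.29 for LBP, -0.45 to 0.62 for PRLR, -0.26 to 0.26 for FASN, -0.68 to 0.41 for PPARGC1A, -0.16 to 0.22 for TLR4, -0.10 to 0.77 for IL1B, -0.072 to 0.12 for STAT3 and -0.032 to 0.15 for GAPDH. The cause of these turns was not tested.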
